A study of Mus musculus with 16 samples.

Results

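The genes described are the receptors of the colony-stimulating factors and the nearest of their kind: Csf1r and its ligand Csf1, the receptor chains Csf2ra, Csf2rb and Csf2rb2, the receptor Csf3r, and the receptor kinases Flt3 and Kit. They were chosen by gene symbol, and all 8 are listed among the 35275 genes of the count table. Polyadenylated RNA was sequenced from 16 libraries of cultured mouse macrophages, 4 in each of 4 groups, although the extraction text speaks of 8 libraries. The first group (KO TGF-β1) came from C57BL/6 mice with Smad7 fl/fl and CAGGCre-ER, a tamoxifen-inducible Cre under the ubiquitous CAGG promoter, and its cells received TGF-β1 at 10 ng/ml for 4 hours. The KO untreated group had the same genotype without TGF-β1. The fl/fl TGF-β1 and fl/fl untreated groups came from Smad7 fl/fl littermates without Cre. All mice, fl/fl included, received tamoxifen at 20 mg/kg on 5 days at 1 month of age, and marrow was taken from the tibia 2 weeks later. CSF-1, the ligand of Csf1r, was added to every culture, 12 ng/ml during the first 24 hours and 120 ng/ml over the next 48 hours, in 15% serum. A serum-free period of about 12 hours came before TGF-β1. The deletion was global, so Smad7 was not removed in macrophages alone. The labels number the libraries within a group but do not say that each came from a separate mouse, so the p-values measure the spread between these libraries, which may be technical.

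Csf1r is the receptor tyrosine kinase through which CSF-1 and interleukin-34 keep macrophages alive, dividing and differentiating, and marrow macrophages in culture depend on it. GM-CSF, interleukin-3 and interleukin-5 signal through pairs of an alpha chain, which sets the ligand, and a shared beta chain, which activates the kinase Jak2 and then Stat5. Mice have a second beta chain, Csf2rb2, that serves interleukin-3 only. Csf3r is the receptor of G-CSF and is best known from neutrophils, while Flt3 and Kit belong to the same kinase family as Csf1r and mark progenitors, dendritic cells (Flt3) and mast cells (Kit).

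Total counts ran from 16865591 to 23741079 per library. Smad7 was at 10.3 to 19.7 CPM in the KO TGF-β1 group, 1.28 to 5.87 CPM in the KO untreated group, 37.3 to 58.3 CPM in the fl/fl TGF-β1 group and 3.89 to 6.03 CPM in the fl/fl untreated group (CPM: counts relative to the library total after TMM scaling). The library labelled KO untreated replicate 1 had the highest Smad7 of its group. It also held 320 CPM of Pmepa1, a gene induced by TGF-β, where the KO TGF-β1 libraries held 292 to 343 CPM and the other 3 of its own group 1.70 to 2.73 CPM, and so it goes against its label. It was kept where the label puts it, and the main KO values are given with and without it. Macrophage markers other than Csf1r, 6 of them measured and all tested, summed to 10577 to 14089 CPM in KO TGF-β1, 11427 to 18223 CPM in KO untreated, 8754 to 13355 CPM in fl/fl TGF-β1 and 13930 to 15962 CPM in fl/fl untreated libraries. Lyz2 made up most of these sums, at 6531 to 10937 CPM in fl/fl TGF-β1 and 11598 to 13661 CPM in fl/fl untreated libraries. Cd68, Itgam, Mertk, Fcgr1 and Cd14 each overlapped between the fl/fl groups.

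Csf1r was among the most abundant transcripts of these cells, and the transcript of its own ligand was far lower. Per gene length, Csf1r was at 886 to 1358 FPKM over the 16 libraries, where it took a rank between 17 and 58 among the 35275 genes. Csf2rb2 followed at 98.6 to 170 FPKM and Csf2rb at 99.2 to 159 FPKM, and these neighbours in the order overlapped in range. Csf2ra was at 62.7 to 166 FPKM. Its range lay below that of Csf2rb in KO untreated, fl/fl TGF-β1 and fl/fl untreated libraries, and it overlapped in KO TGF-β1 libraries, where replicate 1 had the 166 FPKM. Csf3r came next at 18 to 39.6 FPKM and then Csf1 at 1.10 to 4.54 FPKM, and neither range met that of a neighbour. Flt3, at 0 to 0.134 FPKM, and Kit, at 0 to 0.167 FPKM, were last and could not be ordered between themselves. Of the 8 genes, the 6 others passed the filter on low counts and were tested among 13080 genes, and Flt3 and Kit did not.

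**Figure D1:**
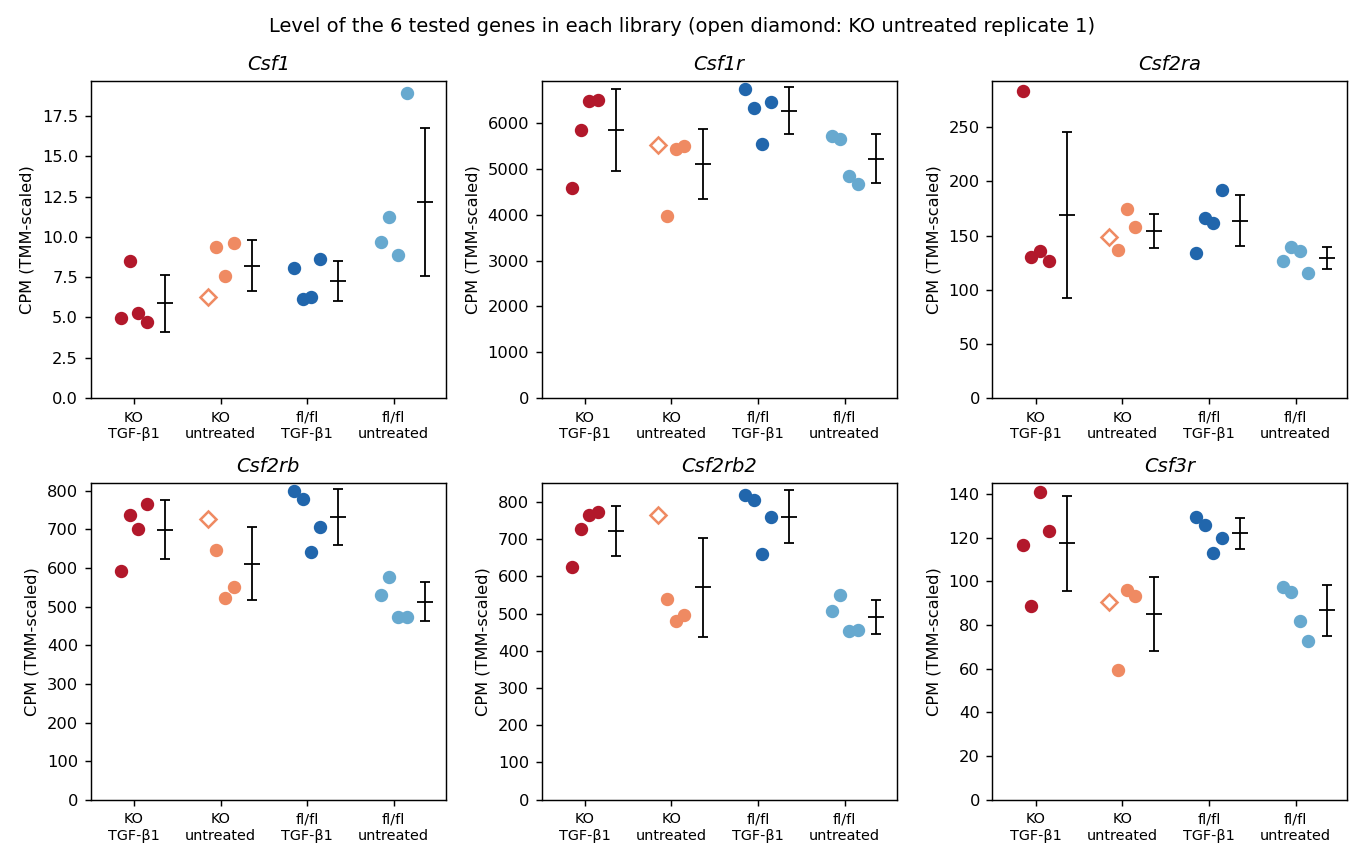
Points are single libraries, 4 per group, in CPM scaled by TMM on a linear axis from 0. The bar beside each group is its mean ± SD, and the open diamond is KO untreated replicate 1. Csf2rb, Csf2rb2 and Csf3r lie higher with TGF-β1 in fl/fl libraries without overlap, and Csf1 lies lower. In KO TGF-β1 libraries 1 point of Csf2ra, at 283 CPM, stands apart from the other 3.

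With TGF-β1 both beta chains and Csf3r rose and the ligand Csf1 fell in fl/fl macrophages, while Csf1r and Csf2ra did not pass the test. A gene was called where the p of edgeR's quasi-likelihood test, adjusted over all tested genes, was under 0.05. In fl/fl macrophages 4 of the 6 tested genes were thus called with TGF-β1, 3 higher and 1 lower (3 with the replicate block, which lost Csf1), where 15.5% of all tested genes were called, 7.87% higher and 7.61% lower. The same 4 were those whose fl/fl groups did not overlap, as 23.9% of all tested genes did not. In KO macrophages with TGF-β1 none of the 6 was called by edgeR, where 5.17% of tested genes were, 2.19% higher and 2.97% lower. At an unadjusted edgeR p under 0.05 there were 2311 genes over the whole table, 17.7% of those tested, among them Csf3r and Csf2rb2. DESeq2 called 1 of the 6, Csf3r, where it called 1093 genes in all. Limma on FPKM called none of the 6, where it called 383 genes in all without the filter on low counts. Without KO untreated replicate 1, edgeR called 2 of the 6, both higher, where 15.2% of tested genes were called with 8.33% called higher and 6.88% lower. The median log2 fold change of the 6 was 0.20 in KO macrophages, 0.29 there without KO untreated replicate 1 and 0.42 in fl/fl macrophages, beside medians of -0.03, -0.01 and -0.01 over all tested genes. Flt3 and Kit are not in these counts.

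**Figure D2:**
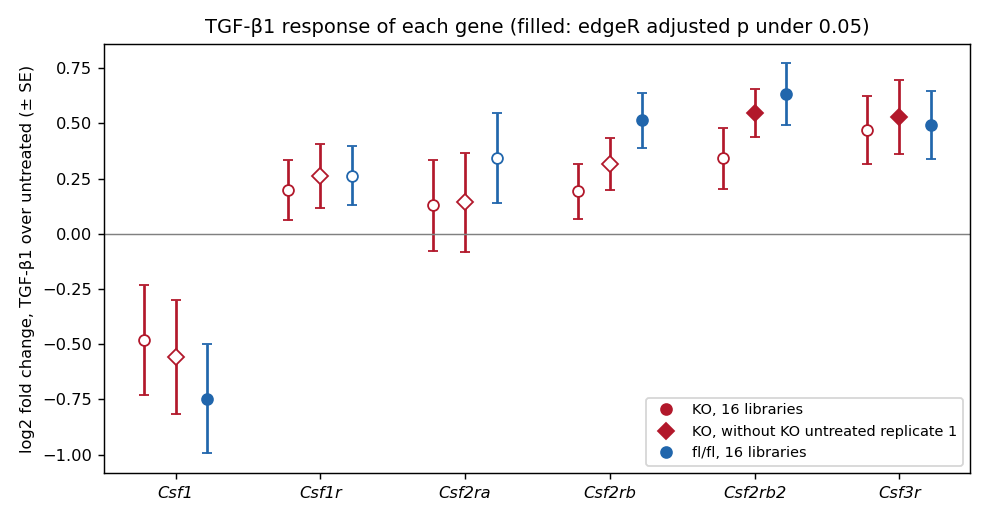
The vertical axis is the log2 fold change of TGF-β1 over untreated with its standard error, for the 6 tested genes. Red circles are KO macrophages with all 16 libraries, red diamonds KO macrophages without KO untreated replicate 1, and blue circles fl/fl macrophages with all 16 libraries. Filled symbols passed an edgeR adjusted p of 0.05: 4 genes in fl/fl, 2 in KO without that library and none in KO with it.

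The ligand Csf1 fell with TGF-β1 in fl/fl macrophages, and its lower value in KO macrophages did not pass the test. Csf1 (ENSMUSG00000014599, chromosome 3, 107741048 to 107760469, minus strand, mm10) encodes CSF-1, which macrophages and stromal cells secrete. It was at 4.95, 8.49, 5.31 and 4.74 CPM in KO TGF-β1 libraries, against 6.25, 9.35, 7.57 and 9.61 CPM in KO untreated libraries. In fl/fl libraries it was at 8.07, 6.16, 6.25 and 8.60 CPM with TGF-β1, against 9.69, 11.2, 8.86 and 18.9 CPM without it. The KO groups overlapped through replicate 2 of the TGF-β1 group. Each fl/fl TGF-β1 library lay below each fl/fl untreated library, and replicate 4 of the untreated group was far above the others. The log2 fold change was -0.48 ± 0.25 (SE) in KO macrophages (edgeR adjusted p = 0.344), or -0.56 ± 0.26 with KO untreated replicate 1 left out (edgeR adjusted p = 0.187). In fl/fl macrophages it was -0.75 ± 0.25, with an edgeR adjusted p of 0.0479. That call was lost with the replicate number as a block (edgeR adjusted p = 0.0546) and in 9 of 16 fits that left out 1 library. Without fl/fl untreated replicate 4 the value was -0.46 ± 0.22 (edgeR adjusted p = 0.208). The calls were also lost without fl/fl untreated replicate 2, fl/fl TGF-β1 replicates 1, 2 or 3, KO untreated replicates 3 or 4, or KO TGF-β1 replicates 3 or 4. Summed stromal markers, which include the Kit ligand Kitl, were at 2.74 to 10.3 CPM in KO TGF-β1, 2.91 to 14.4 CPM in KO untreated, 5.76 to 9.04 CPM in fl/fl TGF-β1 and 12.5 to 19.1 CPM in fl/fl untreated libraries. The most abundant was Kitl, at 3.49 to 5.90 CPM in fl/fl TGF-β1 and 9.68 to 14.5 CPM in fl/fl untreated libraries. Pdgfrb came next and overlapped, at 0.546 to 3.03 CPM against 1.46 to 4.73 CPM. Col1a1, Col1a2, Dcn, Lepr and Pdgfra did not exceed 0.484 CPM in any library. The fl/fl sums thus mainly followed Kitl and say little about stromal cells. Of these 8 stromal markers 2 were tested, and their part in the fall of Csf1 was not tested. In bulk RNA, fewer cells of a type and less RNA per cell cannot be told apart, here and in all that follows.

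Csf1r, the receptor itself, showed no difference past the test in any comparison. Csf1r (ENSMUSG00000024621, chromosome 18, 61105572 to 61132149, plus strand, mm10) had 4593, 5857, 6481 and 6495 CPM in KO TGF-β1 libraries, against 5523, 3964, 5444 and 5500 CPM in KO untreated libraries. In fl/fl libraries it had 6733, 6336, 5550 and 6458 CPM with TGF-β1, against 5722, 5642, 4855 and 4677 CPM without it. Within each genotype the ranges overlapped, although 3 of 4 TGF-β1 libraries exceeded every untreated library of the same genotype. The log2 fold change with TGF-β1 was 0.20 ± 0.14 in KO macrophages (edgeR adjusted p = 0.530), 0.26 ± 0.15 without KO untreated replicate 1 (edgeR adjusted p = 0.297) and 0.26 ± 0.14 in fl/fl macrophages (edgeR adjusted p = 0.220). At its 3' end 871 bases of Csf1r overlap Hmgxb3 on the opposite strand, and without a stated strand setting those reads cannot be told apart.

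The ligand-binding chain of the GM-CSF receptor, Csf2ra, showed no change past the test with all libraries. Csf2ra (ENSMUSG00000059326, chromosome 19, 61224402 to 61228418, minus strand, mm10) had 283, 130, 136 and 127 CPM in KO TGF-β1 libraries, against 149, 137, 175 and 158 CPM in KO untreated libraries. The fl/fl libraries had 134, 167, 162 and 192 CPM with TGF-β1, against 126, 139, 135 and 116 CPM without it. KO TGF-β1 replicate 1 was the highest of all libraries, while the other 3 of that group lay below all 4 KO untreated libraries. The fl/fl groups overlapped through TGF-β1 replicate 1. The log2 fold change was 0.13 ± 0.21 in KO macrophages (edgeR adjusted p = 0.864), 0.14 ± 0.23 without KO untreated replicate 1 (edgeR adjusted p = 0.801) and 0.34 ± 0.21 in fl/fl macrophages (edgeR adjusted p = 0.307). Without KO TGF-β1 replicate 1 the KO value turned to -0.23 (edgeR adjusted p = 0.347). In the same fit the fl/fl value of 0.34 ± 0.11 passed the threshold (edgeR adjusted p = 0.0492).

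The shared beta chains carried the clearest TGF-β1 response among these genes. Csf2rb (ENSMUSG00000071713, chromosome 15, 78325990 to 78351000, plus strand) and Csf2rb2 (ENSMUSG00000071714, chromosome 15, 78282517 to 78305603, minus strand) are neighbouring copies of one gene, lying head to head. Over 2629 aligned coding bases they were 95.32% identical. Of the 150-base stretches of each transcript, the length of a read, 3.575% in Csf2rb and 3.594% in Csf2rb2 occur exactly in the other gene. Among 1879 read-length stretches of coding sequence aligned without a gap, the median difference was 5 bases. In 934 of them 1 to 5 bases differed, and in 165 none did. The stretches below show the extremes. The first pair is the read-length stretch of coding sequence with the most differences, 25 of them, each in capitals. The last line is a stretch shared by both without a difference, so a read from it fits either gene. All are read 5′ to 3′ along the coding strand from GRCm38 with GENCODE M21, and the first pair is spliced, since it spans an intron (Csf2rb chr15:78338889-78340492, plus strand, and Csf2rb2 chr15:78292817-78294442, minus strand). The shared stretch is at chr15:78348577-78348726 on the plus strand in Csf2rb and at chr15:78284722-78284871 on the minus strand in Csf2rb2.
Csf2rb: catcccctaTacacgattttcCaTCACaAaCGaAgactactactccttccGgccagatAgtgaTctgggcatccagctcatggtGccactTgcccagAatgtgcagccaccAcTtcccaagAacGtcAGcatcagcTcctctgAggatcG
Csf2rb2: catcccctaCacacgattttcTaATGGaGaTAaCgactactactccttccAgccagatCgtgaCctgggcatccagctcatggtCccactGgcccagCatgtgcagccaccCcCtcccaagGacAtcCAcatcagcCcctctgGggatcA
Csf2rb and Csf2rb2, shared: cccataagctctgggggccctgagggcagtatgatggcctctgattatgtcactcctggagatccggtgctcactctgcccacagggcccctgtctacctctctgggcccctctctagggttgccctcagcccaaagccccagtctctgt

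Csf2rb, the chain that GM-CSF, interleukin-3 and interleukin-5 share, had 592, 737, 702 and 766 CPM in KO TGF-β1 libraries, against 726, 648, 523 and 550 CPM in KO untreated libraries. Among fl/fl libraries there were 800, 779, 643 and 707 CPM with TGF-β1, against 529, 578, 472 and 472 CPM without it. The fl/fl groups did not overlap, while in KO macrophages untreated replicates 1 and 2 reached into the TGF-β1 range. Csf2rb rose by 0.51 ± 0.12 log2 in fl/fl macrophages (edgeR adjusted p = 0.00886, and 0.0112 with the replicate block). In KO macrophages the value was 0.19 ± 0.12 (edgeR adjusted p = 0.487), or 0.31 ± 0.12 without KO untreated replicate 1 (edgeR adjusted p = 0.0894), past the threshold in neither fit.

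Csf2rb2, the interleukin-3 chain, had 626, 726, 764 and 774 CPM in KO TGF-β1 libraries, against 766, 539, 480 and 496 CPM in KO untreated libraries. In fl/fl libraries it had 818, 804, 660 and 759 CPM with TGF-β1, against 506, 549, 452 and 455 CPM without it. The fl/fl groups did not overlap. Of the KO untreated group, replicate 1 was the highest, within the TGF-β1 range, and the other 3 lay below every KO TGF-β1 library, as 24.2% of tested genes did not overlap without replicate 1. Csf2rb2 rose by 0.63 ± 0.14 log2 in fl/fl macrophages (edgeR adjusted p = 0.00477, and 0.00807 with the replicate block). In KO macrophages the value was 0.34 ± 0.14 (edgeR adjusted p = 0.183) with all libraries, and a rise of 0.55 ± 0.11 (edgeR adjusted p = 0.00149) once KO untreated replicate 1 was left out. In fl/fl macrophages both beta chains kept their call in all 16 fits that left out 1 library. Because of the shared stretches, and because the handling of reads that map to both genes is not stated, the split of reads between the copies is uncertain.

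The balance of the copies did not overlap between TGF-β1 and untreated libraries in fl/fl macrophages, in a design whose smallest p did not pass the adjustment. Csf2rb2 counts divided by Csf2rb counts gave 1.06, 0.985, 1.09 and 1.01 in KO TGF-β1 libraries, against 1.05, 0.832, 0.918 and 0.901 in KO untreated libraries. The ratios were 1.02, 1.03, 1.03 and 1.07 in fl/fl TGF-β1 libraries, against 0.956, 0.950, 0.958 and 0.964 in fl/fl untreated libraries. So Csf2rb2 had more reads than Csf2rb in each fl/fl TGF-β1 library and fewer in each fl/fl untreated library, and the only KO untreated library with more was replicate 1. The log2 ratio was 0.12 higher with TGF-β1 in fl/fl macrophages (two-sided exact permutation p = 0.0286, the smallest that 4 against 4 libraries allow; 0.114 adjusted over 4 comparisons). In KO macrophages it was 0.16 higher (exact permutation p = 0.0857, adjusted 0.171), or 0.23 higher without KO untreated replicate 1 (exact permutation p = 0.0571, the smallest that 4 against 3 allow; adjusted 0.0762). The difference of KO from fl/fl in the log2 ratio was -0.05 in untreated libraries (exact permutation p = 0.514, adjusted 0.686). Without KO untreated replicate 1 it was -0.12 (exact permutation p = 0.0571, adjusted 0.0762). The untreated ratios then did not overlap, at 0.832 to 0.918 in KO and 0.950 to 0.964 in fl/fl libraries. With TGF-β1 the difference was -0.00512 (exact permutation p = 0.914). These tests took the libraries as unpaired. The ratio was chosen after its values were seen.

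**Figure D3:**
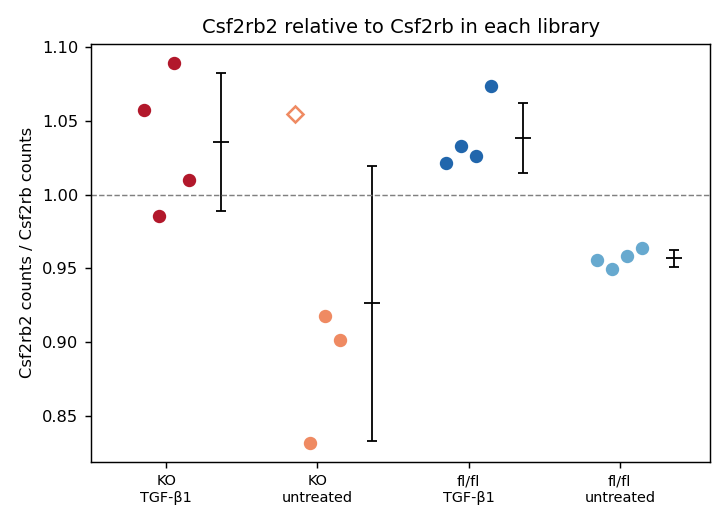
Each point is 1 library, and the vertical axis is the count of Csf2rb2 divided by that of Csf2rb, not starting at 0. The bar beside each group is its mean ± SD, the dashed line marks equal counts, and the open diamond is KO untreated replicate 1. The 4 fl/fl TGF-β1 libraries lie between 1.02 and 1.07, and the 4 fl/fl untreated libraries between 0.950 and 0.964.

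Csf3r rose with TGF-β1 in fl/fl macrophages, and in KO macrophages its call depended on the tool and on KO untreated replicate 1. Csf3r (ENSMUSG00000028859, chromosome 4, 126024550 to 126044440, plus strand, mm10) had 117, 88.5, 141 and 123 CPM in KO TGF-β1 libraries, against 90.7, 59.6, 95.8 and 93.2 CPM in KO untreated libraries. The fl/fl libraries had 129, 126, 113 and 119.9 CPM with TGF-β1, against 97.5, 94.9, 81.7 and 72.8 CPM without it. The fl/fl groups did not overlap, and the KO groups overlapped through TGF-β1 replicate 2. Replicate 2 was also the lowest of the KO untreated group. The log2 fold change was 0.49 ± 0.15 in fl/fl macrophages (edgeR adjusted p = 0.0372; 0.0493 with the replicate block). In KO macrophages it was 0.47 ± 0.15 (edgeR adjusted p = 0.0878; DESeq2 adjusted p = 0.0493). Leaving out KO untreated replicate 1 gave 0.53 ± 0.17 (edgeR adjusted p = 0.0407), a call lost once the replicate block was added (edgeR adjusted p = 0.0775). The fl/fl call was lost in 7 of 16 fits that left out 1 library: each of the 4 fl/fl untreated replicates, and fl/fl TGF-β1 replicates 1, 2 or 4, with adjusted p up to 0.126. Granulocyte markers other than Csf3r were low. They summed to 52.9 to 68.5 CPM in KO TGF-β1, 44.9 to 73.4 CPM in KO untreated, 34.5 to 57.4 CPM in fl/fl TGF-β1 and 54.1 to 65.2 CPM in fl/fl untreated libraries, with 6 of 9 markers tested. The defining neutrophil marker Ly6g had no count in any library, and most of the sum was Mmp8, at 30.2 to 62.3 CPM.

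None of the 6 tested genes differed past the threshold between KO and fl/fl macrophages, without or with TGF-β1. With all 16 libraries Smad7 itself was not called either, at -0.89 ± 0.37 log2 untreated (edgeR adjusted p = 0.423) and -1.71 ± 0.33 with TGF-β1 (edgeR adjusted p = 0.122). It was called in both once KO untreated replicate 1 was left out, at -1.63 ± 0.27 (edgeR adjusted p = 0.0322) and -1.70 ± 0.21 (edgeR adjusted p = 8.90e-04). In untreated macrophages the log2 fold changes of KO over fl/fl ran from -0.58 ± 0.24 for Csf1 (edgeR adjusted p = 0.424) to 0.26 ± 0.21 for Csf2ra (edgeR adjusted p = 0.654). In this comparison 0.0459% of tested genes were called. Csf1 was at 8.2 ± 1.58 CPM in KO untreated and 12.2 ± 4.61 CPM in fl/fl untreated libraries (SD, n = 4 each). Csf2rb was at 612 ± 93.3 CPM in KO untreated and 513 ± 51.0 CPM in fl/fl untreated libraries (SD, n = 4 each), a difference of 0.25 ± 0.12 log2 (edgeR adjusted p = 0.461). Leaving out KO untreated replicate 1 gave -0.49 ± 0.26 for Csf1 (edgeR adjusted p = 0.462), 0.26 ± 0.22 for Csf2ra (edgeR adjusted p = 0.669) and 0.14 ± 0.12 for Csf2rb (edgeR adjusted p = 0.656). For Csf2rb2 the difference was 0.22 ± 0.14, and without KO untreated replicate 1 it was 0.02 ± 0.11 (edgeR adjusted p = 0.959). With TGF-β1 the 6 values of KO over fl/fl ran from -0.31 ± 0.25 for Csf1 (edgeR adjusted p = 0.884) to 0.05 ± 0.21 for Csf2ra (edgeR adjusted p = 0.986), where 0.0382% of tested genes were called. At an unadjusted p under 0.05 edgeR had 1421 genes (10.9%) in the untreated comparison and 734 (5.61%) in the TGF-β1 comparison, and of the 6 only Csf1, in the untreated one. DESeq2 and limma called none of the 6 in either.

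Nor did the size of the TGF-β1 response differ between genotypes past the test for any of the 6. The response in KO minus that in fl/fl was lowest for Csf2rb, at -0.32 ± 0.18 log2, and highest for Csf1, at 0.27 ± 0.35 (edgeR adjusted p = 0.993 for both). Without KO untreated replicate 1 these were -0.19 ± 0.16 for Csf2rb and 0.19 ± 0.35 for Csf1 (edgeR adjusted p = 0.982 for both). For Csf2rb2 the difference was -0.29 ± 0.20 with that library and -0.08 ± 0.15 without it. Over all tested genes edgeR called 0.0% for this difference, 275 genes (2.1%) had an unadjusted p under 0.05, and DESeq2 called 1 gene that is none of the 6. The standard errors were 0.18 to 0.35 log2. After adjustment over all tested genes, differences of that order, and larger ones, could have been missed.

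Flt3 and Kit were close to the limit of detection in macrophages grown with CSF-1, and most reads of Flt3 were in TGF-β1 libraries. Flt3 (ENSMUSG00000042817, chromosome 5, 147330741 to 147400489, minus strand, mm10), the receptor of the Flt3 ligand, had 12, 11, 5 and 8 reads in KO TGF-β1 libraries, against 1, 0, 1 and 2 reads in KO untreated libraries. Among fl/fl libraries there were 8, 6, 5 and 12 reads with TGF-β1, against 0, 5, 1 and 1 reads without it. The KO groups did not overlap, with or without KO untreated replicate 1. Of the tested genes 6.04% did not overlap with it and 24.2% without it. The fl/fl groups overlapped through untreated replicate 2. Flt3 averaged 0.455 ± 0.168 CPM in KO TGF-β1 and 0.0493 ± 0.0431 CPM in KO untreated libraries (SD, n = 4 each; two-sided exact permutation p = 0.0286, adjusted over 8 tests 0.114). The exact permutation p was 0.0571 with KO untreated replicate 1 left out, the smallest that 4 against 3 allow (adjusted 0.114). It averaged 0.416 ± 0.173 CPM in fl/fl TGF-β1 and 0.0942 ± 0.133 CPM in fl/fl untreated libraries (SD, n = 4 each; exact permutation p = 0.0571, adjusted 0.114). In an edgeR fit without the filter on low counts, the log2 fold change was 3.07 ± 0.94 in KO (edgeR adjusted p = 0.0923; 0.0866 without KO untreated replicate 1) and 2.12 ± 0.89 in fl/fl macrophages (edgeR adjusted p = 0.177). At its start 936 bases of the Flt3 span, introns included, overlap the span of Gm26597 on the opposite strand. Without a stated strand setting, how reads from there were counted is not known.

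Kit (ENSMUSG00000005672, chromosome 5, 75574916 to 75656722, plus strand, mm10), the receptor of stem cell factor, had 0, 0, 2 and 1 reads in KO TGF-β1 libraries, against 3, 5, 0 and 0 reads in KO untreated libraries. In fl/fl libraries it had 7, 2, 3 and 17 reads with TGF-β1, against 1, 0, 0 and 3 reads without it. In both genotypes the groups overlapped, and most of the fl/fl TGF-β1 reads were in replicate 4. Kit averaged 0.390 ± 0.360 CPM in fl/fl TGF-β1 and 0.0465 ± 0.0602 CPM in fl/fl untreated libraries (SD, n = 4 each; exact permutation p = 0.0571, adjusted 0.114). With TGF-β1 it was at 0.0388 ± 0.0523 CPM in KO and 0.390 ± 0.360 CPM in fl/fl libraries (SD, n = 4 each; exact permutation p = 0.0571, adjusted 0.114). None of these reached the threshold.

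Markers of the cells that carry Flt3 and Kit were also low. Dendritic cell markers other than Flt3, 5 of 7 tested, summed to 4.03 to 6.19 CPM in KO TGF-β1, 4.2 to 7.19 CPM in KO untreated, 4.55 to 6.72 CPM in fl/fl TGF-β1 and 5.24 to 6.76 CPM in fl/fl untreated libraries. Mast cell and basophil markers other than Kit stayed below 0.889 CPM in sum, and Fcer1a, Mcpt8 and Mcpt4 had no count in any library. Progenitor markers other than both genes, 3 of 6 tested, summed to 19.5 to 28.4 CPM in KO TGF-β1, 12.8 to 21.3 CPM in KO untreated, 11.5 to 19.3 CPM in fl/fl TGF-β1 and 9.63 to 11.0 CPM in fl/fl untreated libraries. Most of that sum was Cd34, at 17.2 to 23.1 CPM in KO TGF-β1, 6.88 to 15.8 CPM in KO untreated, 9.75 to 16.1 CPM in fl/fl TGF-β1 and 5.13 to 6.47 CPM in fl/fl untreated libraries. Meis1, the next most abundant, was at 2.16 to 4.22 CPM in KO TGF-β1, 4.2 to 6.36 CPM in KO untreated, 1.20 to 3.22 CPM in fl/fl TGF-β1 and 3.11 to 4.89 CPM in fl/fl untreated libraries. Cd34 thus lay higher with TGF-β1 and Meis1 mostly lower, and the part of such cells in the Flt3 reads was not tested.

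**Figure D4:**
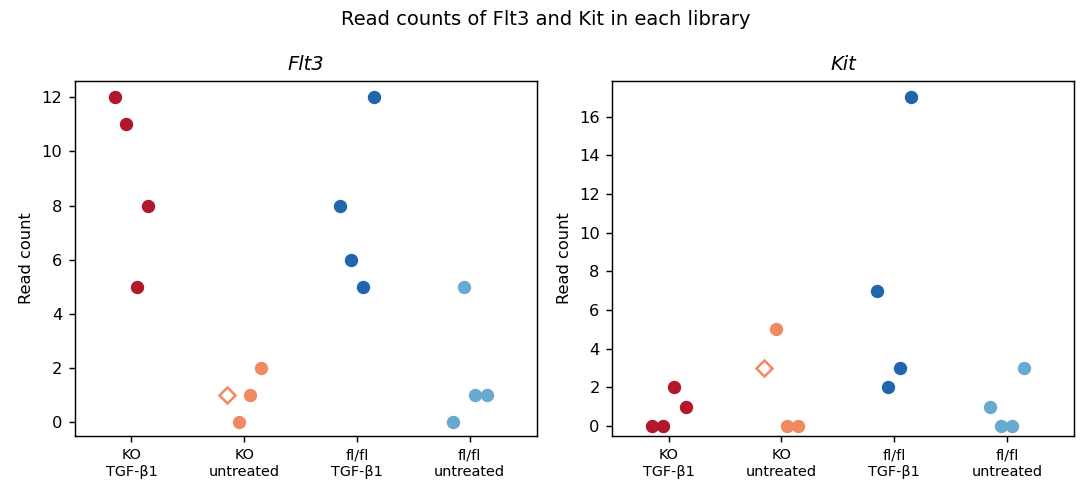
Raw read counts of Flt3 (left) and Kit (right), 1 point per library, with the open diamond for KO untreated replicate 1. Flt3 has 5 to 12 reads in each of the 8 TGF-β1 libraries and 0 to 5 in the 8 untreated libraries. Kit has up to 17 reads in fl/fl TGF-β1 libraries and up to 5 elsewhere.

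The start regions of the 3 called genes with a RefSeq promoter entry are shown because TGF-β1 acts through Smad proteins on promoters and these genes moved with it. Each is read 5′ to 3′ along the gene's strand and ends upstream of the transcribed region, from RefSeq on GRCm38.p6. A search of both strands used CAGAC (or GTCTG), the Smad box, and GAGGAA (or TTCCTC), the core bound by PU.1-type ETS factors. The matches are in capitals. The places are chr15:78305722-78305971 on the minus strand for Csf2rb2, chr4:126024409-126024549 on the plus strand for Csf3r and chr3:107760470-107760719 on the minus strand for Csf1.
Csf2rb2: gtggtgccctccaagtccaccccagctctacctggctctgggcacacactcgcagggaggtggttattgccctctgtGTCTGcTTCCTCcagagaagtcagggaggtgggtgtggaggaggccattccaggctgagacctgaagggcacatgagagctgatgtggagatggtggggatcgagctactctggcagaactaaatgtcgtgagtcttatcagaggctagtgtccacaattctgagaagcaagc
Csf3r: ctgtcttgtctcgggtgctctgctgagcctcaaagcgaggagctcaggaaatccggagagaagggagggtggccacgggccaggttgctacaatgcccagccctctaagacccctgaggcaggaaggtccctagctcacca
Csf1: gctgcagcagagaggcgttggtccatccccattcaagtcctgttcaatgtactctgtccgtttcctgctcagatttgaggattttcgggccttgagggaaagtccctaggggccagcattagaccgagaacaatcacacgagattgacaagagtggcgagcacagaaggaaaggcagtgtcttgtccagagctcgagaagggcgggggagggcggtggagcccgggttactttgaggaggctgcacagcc
The Csf2rb2 stretch held 1 match of each motif, a single base apart, and the stretches of Csf3r and Csf1 held none. The full 250 bases before the RefSeq start of Csf3r held 1 GAGGAA. The entries of Csf2ra, Flt3 and Kit held 0, 1 and 0 matches of CAGAC and 2, 0 and 1 matches of GAGGAA. Kit has 2 entries, and its counts cover only 1 of them. Over 32851 RefSeq promoters, 42.2% held CAGAC and 23.3% GAGGAA within 250 bases before the start. Of the 8 genes 6 had an entry.

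Around these receptors, the signalling genes divided in both directions with TGF-β1. The lists of pathway genes hold 56 genes in 6 groups. Among 18 genes of receptor-proximal signalling, all tested, 5 rose and 4 fell in fl/fl macrophages, where 15.5% of all tested genes were called, and 9 did not pass. In KO macrophages 2 rose and 1 fell, where 5.17% were called, or 4 rose and 3 fell without KO untreated replicate 1, where 15.2% were. The median log2 fold change of the list was 0.09 in KO (0.15 without that library) and 0.10 in fl/fl macrophages, beside the medians over all tested genes given above. Vav1, a signalling protein of blood cells, averaged 449 ± 36.8 CPM in KO TGF-β1 and 281 ± 78.3 CPM in KO untreated libraries (SD, n = 4 each), and 514 ± 33.2 CPM in fl/fl TGF-β1 and 274 ± 15.6 CPM in fl/fl untreated libraries (SD, n = 4 each). It rose by 0.68 ± 0.15 log2 in KO (edgeR adjusted p = 0.0189), 0.90 ± 0.12 without KO untreated replicate 1, and by 0.91 ± 0.15 in fl/fl macrophages (edgeR adjusted p = 9.25e-04). Plcg2, a phospholipase downstream of Csf1r, rose by 0.60 ± 0.16 in KO (edgeR adjusted p = 0.0350), 0.82 ± 0.13 without that library, and by 0.71 ± 0.16 in fl/fl macrophages (edgeR adjusted p = 0.00471). Shc1, an adaptor towards Ras, rose by 0.53 ± 0.12 in fl/fl macrophages (edgeR adjusted p = 0.00648). Its KO value was not called with all libraries. Without KO untreated replicate 1 it was, at 0.50 ± 0.10 (edgeR adjusted p = 0.00188). Pik3cd, the catalytic subunit of a phosphoinositide 3-kinase, fell by 0.43 ± 0.12 in KO (edgeR adjusted p = 0.0499) (-0.52 ± 0.10 without that library) and by 0.60 ± 0.12 in fl/fl macrophages (edgeR adjusted p = 0.00327). Stat5a, which the beta chains activate, fell by 0.56 ± 0.12 in fl/fl macrophages (edgeR adjusted p = 0.00333), at 37.3 ± 1.88 CPM with TGF-β1 and 55.0 ± 6.92 CPM without it (SD, n = 4 each). So while the beta chains rose in fl/fl macrophages, this transcription factor of their pathway fell. Lyn, a Src-family kinase, fell by 0.55 ± 0.13 in fl/fl macrophages (edgeR adjusted p = 0.00654). Stat5a and Lyn were not called in KO macrophages with all libraries. Both were called lower there without KO untreated replicate 1. Stat5a was at -0.39 ± 0.10 (edgeR adjusted p = 0.0145) and Lyn at -0.48 ± 0.12 (edgeR adjusted p = 0.00948).

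Of 12 negative regulators of these receptors 11 were tested, and 2 rose and 1 fell in fl/fl macrophages (15.5% of all tested genes called). In KO macrophages none rose and 1 fell (5.17% called), or 2 rose and 4 fell without KO untreated replicate 1 (15.2% called). The median of the 11 was -0.10 in KO (-0.08 without that library) and -0.15 in fl/fl macrophages. Inpp5d, the phosphatase SHIP1 that ends phosphoinositide signals, averaged 1224 ± 61.8 CPM in fl/fl TGF-β1 and 529 ± 27.5 CPM in fl/fl untreated libraries (SD, n = 4 each), a rise of 1.21 ± 0.24 log2 (edgeR adjusted p = 0.00290). In KO macrophages it was at 0.82 ± 0.24 (edgeR adjusted p = 0.0575), and the KO groups without KO untreated replicate 1 gave a rise of 1.30 ± 0.13 (edgeR adjusted p = 8.94e-07). Socs2, an inhibitor of Jak and Stat signalling, rose in fl/fl macrophages by 2.46 ± 0.78 (edgeR adjusted p = 0.0389), from a low level: 1.94 ± 0.623 CPM with TGF-β1 and 0.359 ± 0.376 CPM without it (SD, n = 4 each). Without KO untreated replicate 1 it also rose in KO macrophages, by 3.37 ± 0.67 (edgeR adjusted p = 0.00132). Socs1 and Ptpn6 of this list were called only without that library. Socs1 was then lower in KO macrophages, at -2.25 ± 0.49 (edgeR adjusted p = 0.0032). Ptpn6 was then at -0.48 ± 0.11 in KO (edgeR adjusted p = 0.0044) and -0.34 ± 0.10 in fl/fl macrophages (edgeR adjusted p = 0.0228). Cblb, a ubiquitin ligase, fell in fl/fl macrophages by 0.56 ± 0.10 (edgeR adjusted p = 0.00131). Dok2, an adaptor that restrains Ras, fell by 1.76 ± 0.45 in KO macrophages (edgeR adjusted p = 0.0374) and was at -2.01 ± 0.37 without that library. Dok2 in fl/fl macrophages was at -1.29 ± 0.44 (edgeR adjusted p = 0.0614), and called in the fit without KO untreated replicate 1 (edgeR adjusted p = 0.0117).

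Of 8 regulators of the Csf1r gene, all tested, 3 rose and 1 fell in fl/fl macrophages (15.5% of all tested genes called), while Csf1r itself did not pass. In KO macrophages 2 rose and 1 fell (5.17% called), or 3 rose and 2 fell without KO untreated replicate 1 (15.2% called). The median of the 8 was 0.11 in KO (0.16 without that library) and 0.57 in fl/fl macrophages. Cebpa, a myeloid transcription factor, averaged 1006 ± 137 CPM in fl/fl TGF-β1 and 227 ± 50.8 CPM in fl/fl untreated libraries (SD, n = 4 each). It rose by 1.36 ± 0.34 log2 in KO (edgeR adjusted p = 0.0330) and by 2.15 ± 0.35 in fl/fl macrophages (edgeR adjusted p = 0.00109), and by 2.08 ± 0.17 in KO without KO untreated replicate 1 (edgeR adjusted p = 6.46e-08). Irf8, which directs monocyte and macrophage fate, rose by 0.46 ± 0.12 in KO (edgeR adjusted p = 0.0399), 0.57 ± 0.13 without that library, and by 0.65 ± 0.12 in fl/fl macrophages (edgeR adjusted p = 0.00221). Runx1, a regulator of blood cell development, rose by 0.56 ± 0.15 in fl/fl macrophages (edgeR adjusted p = 0.0168). Its KO value was called without KO untreated replicate 1, at 0.68 ± 0.14 (edgeR adjusted p = 0.00155), and not with all libraries. Ets2, an ETS factor, fell by 1.28 ± 0.35 in KO (edgeR adjusted p = 0.0484) (-1.52 ± 0.27 without that library) and by 1.90 ± 0.36 in fl/fl macrophages (edgeR adjusted p = 0.00255). Spi1, which encodes PU.1, was at -0.33 ± 0.14 in KO macrophages (edgeR adjusted p = 0.192) and fell by 0.42 ± 0.12 without that library (edgeR adjusted p = 0.0172).

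Of 9 growth genes that CSF-1 is known to induce, all tested, 1 rose and 2 fell in fl/fl macrophages (15.5% of all tested genes called). In KO macrophages none passed (5.17% called), or 1 rose and 1 fell without KO untreated replicate 1 (15.2% called). The median of the 9 was -0.19 in KO (-0.20 without that library) and -0.29 in fl/fl macrophages. Plau, the urokinase protease, averaged 40.0 ± 10.9 CPM in KO TGF-β1 libraries and 7.11 ± 0.833 CPM in KO untreated libraries without replicate 1 (SD, n = 4 and n = 3), a rise of 2.52 ± 0.39 log2 (edgeR adjusted p = 1.28e-04). With replicate 1 the value was 1.60 ± 0.52 (edgeR adjusted p = 0.0983). In fl/fl macrophages it rose by 1.73 ± 0.52 (edgeR adjusted p = 0.0359). Egr2, an early growth response factor, fell by 1.55 ± 0.35 in fl/fl macrophages (edgeR adjusted p = 0.00569), and Ccnd2, cyclin D2, fell by 1.43 ± 0.47 there (edgeR adjusted p = 0.0449). Egr2 was also called lower in KO macrophages without KO untreated replicate 1, at -0.95 ± 0.25 (edgeR adjusted p = 0.0144).

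Of 7 other ligands of these receptors only Kitl and Flt3l passed the filter, and neither was called with 16 libraries by edgeR. Csf2 and Il3, which encode GM-CSF and interleukin-3, had no count in any library. Kitl, the ligand of Kit, was at 5.04 ± 1.10 CPM in fl/fl TGF-β1 and 11.6 ± 2.1 CPM in fl/fl untreated libraries (SD, n = 4 each). With all 16 libraries the value there was -1.20 ± 0.42 log2 (edgeR adjusted p = 0.0672), and leaving out KO untreated replicate 1 gave -1.20 ± 0.30 (edgeR adjusted p = 0.00850), where 9.23% of tested genes were called lower. Of the alpha chains that pair with Csf2rb, Il3ra was tested and not called, with a TGF-β1 response of -0.39 ± 0.19 log2 in KO (edgeR adjusted p = 0.299), or -0.43 ± 0.19 with KO untreated replicate 1 left out (edgeR adjusted p = 0.181), and 0.11 ± 0.19 in fl/fl macrophages (edgeR adjusted p = 0.769). Il5ra had no count in any library.

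**Figure D5:**
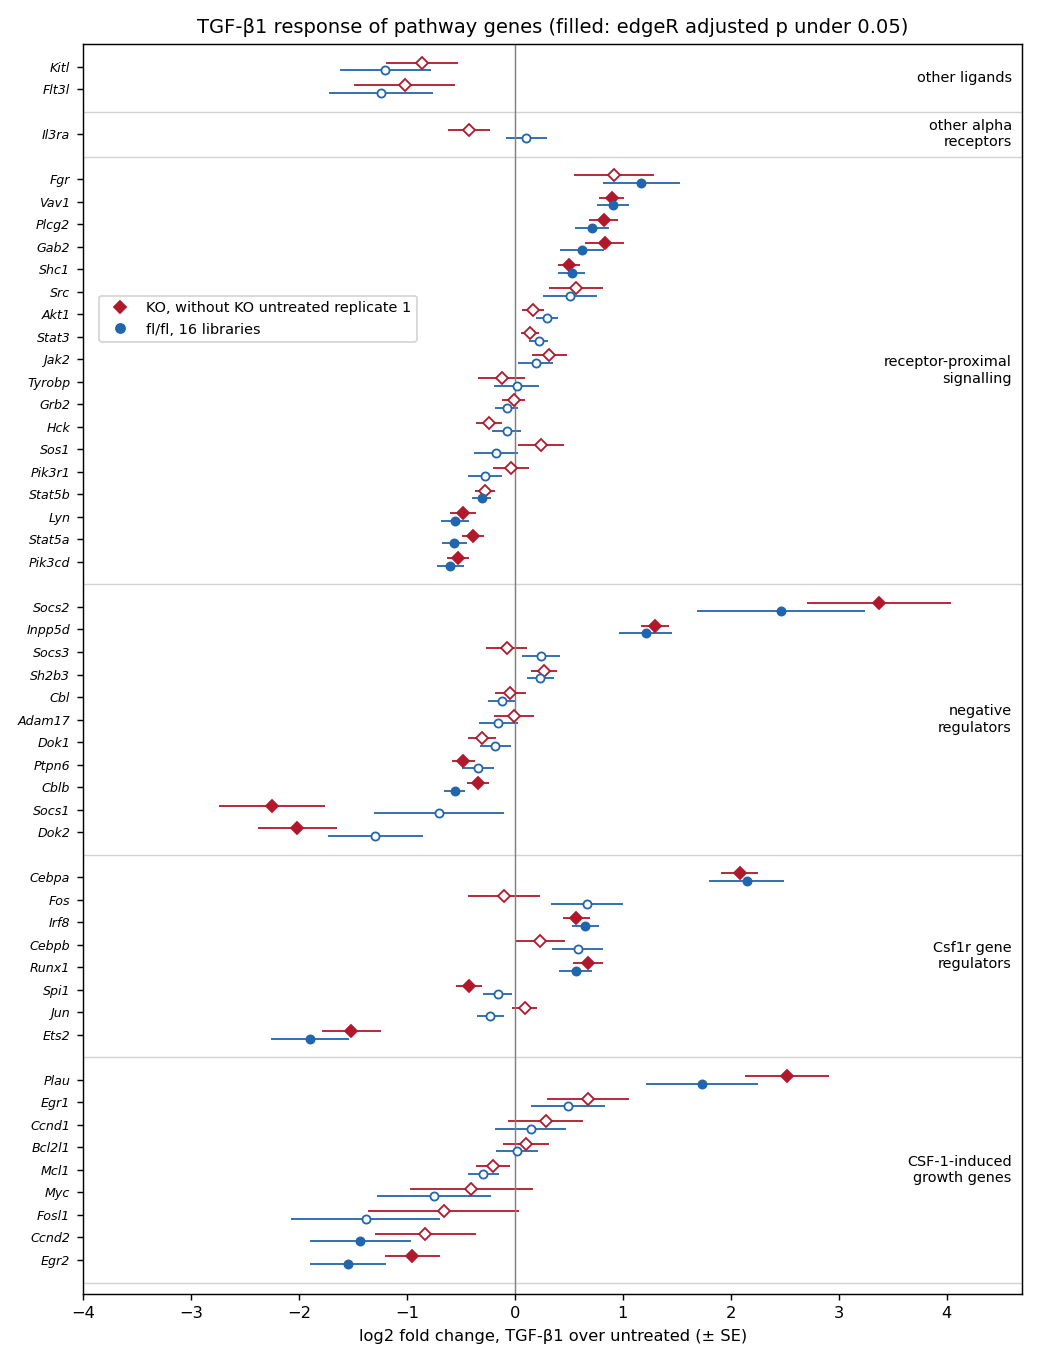
Each row is a tested gene of the 6 pathway lists, with the log2 fold change of TGF-β1 over untreated and its standard error on the horizontal axis. Red diamonds are KO macrophages without KO untreated replicate 1, blue circles fl/fl macrophages with 16 libraries, and filled symbols passed an edgeR adjusted p of 0.05. Socs2, Plau, Cebpa and Inpp5d lie above 1 in both genotypes, and Dok2 and Ets2 lie below -1 in both, with Dok2 filled in KO only.

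Over the 16 libraries the copies were the most alike of the 6 tested genes, and Csf1 was the least like the others. Likeness was measured as the root-mean-square difference of log2 CPM after each gene was centred on its own mean, without use of the labels, and it was computed among 10003 named genes. Csf2rb and Csf2rb2 differed by 0.10 log2, the least of the 15 pairs, and Csf1 and Csf3r by 0.73, the most. The copies share read-length stretches, and the part of such reads in their likeness was not tested. Csf1 had the fewest reads of the 6, 92 to 450 in a library, and the part of low counts in its distance was not tested. The 6 pairs among Csf1r, Csf2rb, Csf2rb2 and Csf3r differed by 0.10 to 0.28, the 4 pairs of these with Csf2ra by 0.36 to 0.40, and the 5 pairs with Csf1 by 0.59 to 0.73. Nearest to Csf1r was Ppp1r10 at 0.07, and nearest to Csf2rb2 was Endod1 at 0.08. Map4 at 0.09 was nearest to Csf2rb, followed by Endod1 at 0.09. Lrrc45 was nearest to Csf2ra at 0.11, Pnpla7 to Csf3r at 0.13 and Hs6st1 to Csf1 at 0.26. Genes that vary little are near to many others on this measure, and the median difference to all compared genes ran from 0.33 for Csf1r to 0.54 for Csf1. Without KO untreated replicate 1 the nearest gene was another only for Csf3r, where Rab9 at 0.13 came first.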

How the data were processed

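The values come from 2 tables of the whole series, both as deposited by the authors. The count table holds raw read counts per Ensembl gene, deposited by the authors as whole numbers. The FPKM table deposited by the authors equals count over gene length and library total within 0.1% for 100% of positive values. The submitters' processing notes name mm10 (GRCm38.p6) and, with no role, TopHat2 2.0.9, Cufflinks 2.1.1 and HTSeq 0.6.1. The strand setting and how multiply mapped reads were counted are not given in the sources used here.

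Counts were TMM-scaled and filtered with filterByExpr, which kept 13080 genes, in edgeR 4.0.16 under R 4.3.3. The robust quasi-likelihood fit used all 16 libraries with 1 mean per group, and Benjamini-Hochberg adjustment ran over all genes tested, with calls under 0.05. Means are in CPM ± SD, and log2 fold changes are ± SE. Totals averaged 1.99e+07 counts. Alternatives were RLE size factors, DESeq2 1.42.0, no filter, a replicate block, the compared groups alone, limma 3.58.1 on log2(FPKM + 1) or log2(FPKM + 0.1), and leaving out each library. No filter or the block together with leaving out KO untreated replicate 1 was chosen after seeing the data, as was the exact permutation test (scipy 1.17.1) of the beta chain ratio. The edgeR step was tested on simulated data.

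Same-numbered fl/fl libraries, with TGF-β1 and without, deviated together, with correlations of 0.12 to 0.18, all above 0.1. They may be paired, which the labels do not state. No correlation of differently numbered libraries is given for comparison, and KO replicates 3 and 4 reached 0.19 and 0.24. Pairing was thus left unsettled. The main tests took the libraries as unpaired, with the replicate block as an alternative.

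The genes, the lists and the rule for named genes were chosen with earlier results of these data known. The rule names the 8 genes, Smad7 and Pmepa1, up to 3 genes called in each direction with the lowest p per pathway list and TGF-β1 comparison, and the nearest patterns. Ligands and alpha chains named beyond it were chosen after their values were seen. No 2 libraries were identical.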

Additional observations from a re-analysis of the deposited data

Results flagged for a closer look

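In 5 of 36 groups of 4 libraries, 1 library stood apart from the other 3 by Dixon's criterion at 95%, and chance flags about 1 in 20 groups. Csf1r was at 3964 CPM in KO untreated replicate 2, against 5444 to 5523 CPM in the other 3. Csf3r was at 59.6 CPM in the same library, against 90.7 to 95.8 CPM. Csf1 was at 8.49 CPM in KO TGF-β1 replicate 2, against 4.74 to 5.31 CPM. Csf2ra was at 283 CPM in KO TGF-β1 replicate 1, against 127 to 136 CPM. Flt3 was at 0.291 CPM, 5 reads, in fl/fl untreated replicate 2, against 0 to 0.0434 CPM. KO TGF-β1 replicate 1 and KO untreated replicate 2 also had the highest TMM factors, 1.09 and 1.05. Their part in these values was not tested.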

How the results depend on the processing

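With TGF-β1 in KO macrophages 676 genes were called. DESeq2 called 1093, edgeR without the filter 446, limma without the filter 383 and the compared groups alone 0, and leaving out 1 library gave 93 to 1989. Without KO untreated replicate 1, 1788 were called with no filter and 1740 with the replicate block. Of the 6 tested genes, 0 were called, 1 by DESeq2, and without that library 2 with no filter and 1 with the block, where Csf3r had an edgeR adjusted p of 0.0775; leaving out 1 library gave 0 to 2. In fl/fl macrophages the 4 called genes became 2 under each limma setting and 3 under the replicate block or with the compared groups alone. Totals over all genes for limma and the compared groups alone are not given here, so those counts have no share beside them. Leaving out 1 library gave 2 to 5 of the 6, where 1379 to 2372 of all tested genes were called. Over all genes the replicate block gave 662 calls in KO and 1785, against 2025, in fl/fl macrophages. In KO macrophages same-numbered libraries correlated by 0.08, 0.08, 0.19 and 0.24, not all above 0.1, and between genotypes all correlations were negative.

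For KO over fl/fl untreated, 6 genes were called, 61 by DESeq2, 10 without the filter, 17 without the filter and KO untreated replicate 1, and 4 to 13 with 1 library left out. With TGF-β1, 5 were called, 24 by DESeq2, 11 without the filter and that library, and 4 to 8 with 1 library left out. The difference of responses had 0 calls, 1 by DESeq2 and 1 by limma without the filter.

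Values near 0 that were never called changed sign, and the cause was not tested. With 1 library left out, the TGF-β1 response of Csf2ra in KO ran from -0.23 to 0.26 log2. For KO over fl/fl untreated, Csf1r ran from -0.0943 to 0.0676 and Csf3r from -0.12 to 0.10, and Flt3 from -0.0763 to 0.0208 CPM. With TGF-β1, Csf1r ran from -0.15 to 0.0074, Csf2ra from -0.32 to 0.17, Csf2rb from -0.12 to 0.011 and Csf3r from -0.16 to 0.0681, Flt3 from -0.0248 to 0.108 CPM, and the log2 ratio of Csf2rb2 to Csf2rb from -0.0298 to 0.0184. The difference of responses ran from -0.00137 to 0.42 for Csf1, from -0.16 to 0.0504 for Csf1r and from -0.15 to 0.11 for Csf3r. Under limma, Csf1r in KO over fl/fl untreated was 1.50e-05, with or without the filter, and 9.09e-06 with the smaller pseudocount, and the difference of responses of Csf3r was 1.63e-04 and 2.83e-04. Without KO untreated replicate 1, that of Csf3r was 0.0249 with no filter and 0.0161 with the block, that of Csf1r 0.0152 with the block, and Csf2ra in KO over fl/fl with TGF-β1 was -0.00512 with the block.

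Flt3 and Kit had at most 17 reads in a library and did not pass the filter on low counts. In fl/fl macrophages Csf2rb and Csf2rb2 were called under every alternative run, and the calls of Csf1 and Csf3r were not.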
